A study of Homo sapiens with 6 samples.

Results

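Interferon stimulated genes are the genes that a cell turns on when an interferon binds its receptor. A set of 38 such genes, named one by one, was taken from a table of 20030 genes measured after knockdown of KIF11, a motor protein of the mitotic spindle. The cells were HepG2, an established human hepatoma line. The sh-ctrl group (3 libraries) carried a control short hairpin RNA and the sh-KIF11 group (3 libraries) carried a short hairpin RNA against KIF11, each from a pLKO.1 lentivirus, and per the study's methods infected cells were selected with puromycin. No interferon treatment is described for either group. The study's list of DNA oligos holds 1 hairpin against KIF11, so an effect of the hairpin sequence and an effect of losing KIF11 cannot be told apart. The labels number the libraries within each group without saying whether they came from separate cultures, and the p-values therefore measure only the spread between these libraries, which may be technical.

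Interferons are secreted proteins that infected or damaged cells release. Type I and type III interferons act through the receptor kinases JAK1 and TYK2, which phosphorylate STAT2 and other factors. STAT2 and IRF9 are parts of the factor ISGF3, and ISGF3 binds a DNA element called the ISRE in front of its target genes. The products block viruses at many steps, among them entry, translation, RNA stability and release of new particles. Hepatocytes respond to both types, and many of these genes keep a low basal level without added interferon.

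All 38 genes were found in the table, and IRF7 was listed at 0 in all 6 libraries. A gene was tested when enough libraries passed 0.531 CPM (counts scaled to a common library size, here by library totals alone), which 31 members did. The other 7 were IRF7, HERC6, IFIT2, OASL, IFI44, IFI44L and RSAD2. All CPM values given below were scaled with TMM factors as well. Depth was 18167773 to 19583282 counts per library. KIF11 itself was at 111, 116 and 121 CPM in sh-ctrl and at 72.1, 71.4 and 62.8 CPM in sh-KIF11, so it fell by 40.5% (log2 fold change −0.75, SE 0.0573, edgeR adjusted p = 4.22e-15). The hepatocyte origin of the line was visible in ALB, the albumin gene, with 135961 to 158044 counts per library in sh-ctrl and 55445 to 63485 in sh-KIF11, and 9 of 10 hepatocyte markers fell. Of 9 leukocyte markers, PTPRC, the pan-leukocyte surface phosphatase, had at most 1 count in any library, and MS4A1, CSF1R and HLA-DRA had none. The summed FPKM of that leukocyte list was nevertheless 1708 to 2008 in sh-ctrl and 377 to 481 in sh-KIF11, nearly all of it LYZ, and LYZ, CD68 and CD14 fell. Among 4 endothelial genes CDH5 had at most 2 counts and KDR at most 1. PECAM1 was not called, and VWF rose from 34, 21 and 28 counts to 75, 63 and 54 (log2 fold change 1.01). The summed level of that list was 0.258 to 0.293 against 0.416 to 0.437 FPKM. Among 5 fibroblast genes DCN was at 0, and COL1A1 and COL1A2 had at most 7 counts. PDGFRB fell (log2 fold change −1.16) and ACTA2 rose (1.03). The summed level was 28.0 to 28.7 against 65.7 to 70.9 FPKM, nearly all of it ACTA2. The part of these shifts in the results for interferon stimulated genes was not tested. In bulk RNA, fewer cells with a transcript and less of it per cell cannot be told apart.

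The promoters of the genes that moved and of those that did not are shown first, because the ISRE is the element through which ISGF3 acts. RefSeq windows (GRCh38.p14) that reached from 250 bases before the annotated transcript start to 50 after it were matched for 29 of the 38 members by symbol. Those without a window were DHX58, IFIT2, IFITM2, IRF7, MX2, OAS2, OASL, TRIM22 and USP18. Each stretch is read 5′ to 3′ on the strand of the gene. Capitals mark every match to GAAANNGAAA, the core of the ISRE, on either strand, and overlapping matches run together. The first 5 lines are genes that were lower in sh-KIF11, the next 3 were higher, and IFIT1 was not called.
ISG15 (chr1:1013369-1013414, plus strand): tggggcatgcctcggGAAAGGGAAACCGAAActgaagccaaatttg
BST2 (chr19:17405730-17405775, minus strand): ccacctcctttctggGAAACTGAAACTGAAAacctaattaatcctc
IFITM3 (chr11:320871-320927, minus strand): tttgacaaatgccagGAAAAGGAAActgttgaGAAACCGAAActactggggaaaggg
LGALS3BP (chr17:78979957-78979996, minus strand): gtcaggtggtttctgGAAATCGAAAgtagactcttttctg
IFI6 (chr1:27672261-27672363, minus strand): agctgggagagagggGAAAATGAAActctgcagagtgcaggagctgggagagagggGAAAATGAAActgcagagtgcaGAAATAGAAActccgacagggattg
IFI27 (chr14:94110613-94110665, plus strand): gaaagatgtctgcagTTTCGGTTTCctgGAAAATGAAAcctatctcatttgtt
HERC5 (chr4:88456979-88457069, plus strand): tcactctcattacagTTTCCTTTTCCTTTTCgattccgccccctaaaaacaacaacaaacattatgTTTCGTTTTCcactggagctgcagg
PARP14 (chr3:122680795-122680834, plus strand): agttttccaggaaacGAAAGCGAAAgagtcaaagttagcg
IFIT1 (chr10:89392492-89392544, plus strand): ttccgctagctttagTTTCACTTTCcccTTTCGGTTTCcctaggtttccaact

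A core match was found in 20 of the 29 members (69%), against 4.38% of all 27305 genes with a window. Genes on both sides of the change carried it. It was present in 4 of 5 members that rose and had a window, in 8 of 9 that fell, in 5 of 11 that were not called and in 3 of 4 that were not tested. IRF9 and IFI35 were the called members without this exact match. The match requires the NN spacing. IFI35, OAS1, XAF1, CMPK2 and SP110 have a window with GAAA copies 1 base apart, on either strand, which were not counted. The shares above therefore hold for the exact spacing only, and how often closer copies occur in all genes was not counted. IFI6 had 3 separate matches, of which the first and second read the same 10 bases, while PARP14 and LGALS3BP had 1 each. In ISG15 and BST2, which fell, in HERC5, which rose, and in IFIH1, which was not called, a pair of matches overlapped by 4 bases. The GAS core (TTCNNNGAA, an element that serves the response to interferon gamma) was found in 10 of 29 members (34.5%) and in 9.38% of all genes. It overlapped an ISRE core match in BST2, IFI27, IFITM1 and MX1. These matches describe letters in a window and do not show binding.

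**Figure D1:**
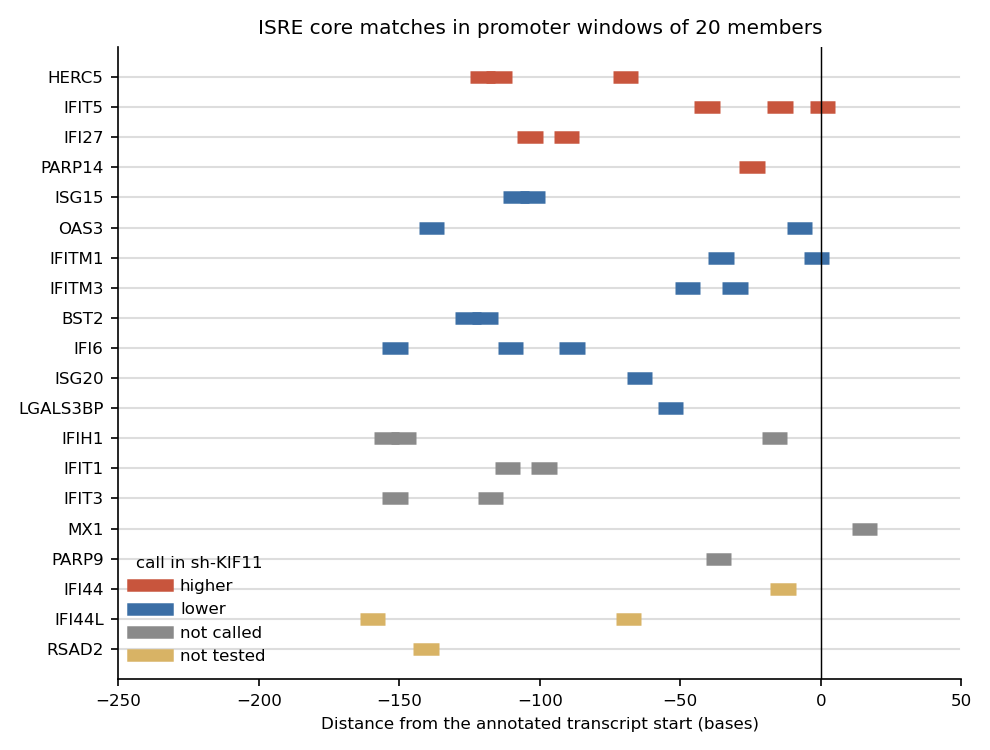
Each row is one of the 20 members whose RefSeq window holds an ISRE core match. The horizontal axis gives the distance in bases from the annotated transcript start (0), the grey line spans the window, and each block is a match coloured by the gene's call in sh-KIF11. Genes with several annotated starts are drawn for the first with a match. The match of MX1 lies after the start, 1 each of IFIT5 and IFITM1 spans it and the others lie before it, and both the genes that rose and those that fell have them.

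Of the 31 tested members, 18 were called, meaning an adjusted p under 0.05 from edgeR's quasi-likelihood fit over all 12369 tested genes. This is 58.1%, while 69.1% of all tested genes were called. The set did not move one way. ISG15, USP18, OAS3, MX2, IFITM1, IFITM2, IFITM3, BST2, IFI6, IFI35, ISG20 and LGALS3BP fell, 12 in all or 38.7%, with 34.7% of all tested genes called lower. IRF9, HERC5, IFIT5, IFI27, PARP14 and TRIM22 rose, 6 in all or 19.4%, with 34.4% of all tested genes called higher. The median log2 fold change of the 31 was −0.18 (quartiles −0.45 and 0.27), beside 0.00 for all tested genes (quartiles −0.31 and 0.36), and the median size without sign was 0.36 against 0.33. Scaled by library totals alone the split was 12 higher and 9 lower of 31, beside 6619 higher and 2378 lower of all 12369 tested genes. That scaling moved the median of all genes to 0.23. In that scaling the log2 fold changes of the members that fell moved up by about 0.23. ISG15 was at −0.25, USP18 at −0.42, OAS3 at −0.23, IFITM2 at −0.22, BST2 at −0.20 and LGALS3BP at −0.25, all still called lower. IFITM1 (−0.09), ISG20 (−0.42) and MX2 (0.03) were no longer called. The difference between the medians of members and all genes was −0.18 in either scaling. A change of at least 2-fold was called for 5 members (HERC5, IFI27 and TRIM22 higher, IFI6 and IFI35 lower), where 11.7% of all tested genes were called with such a change. HERC5 was tested through its sh-KIF11 libraries alone. Libraries of sh-ctrl and sh-KIF11 were fully separated in 23 of 31 members (74.2%), against 71.2% of all tested genes. The smallest two-sided p of an exact permutation test at this size is 0.1, and the calls therefore come from the fit, which shares its estimate of spread across genes.

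**Figure D2:**
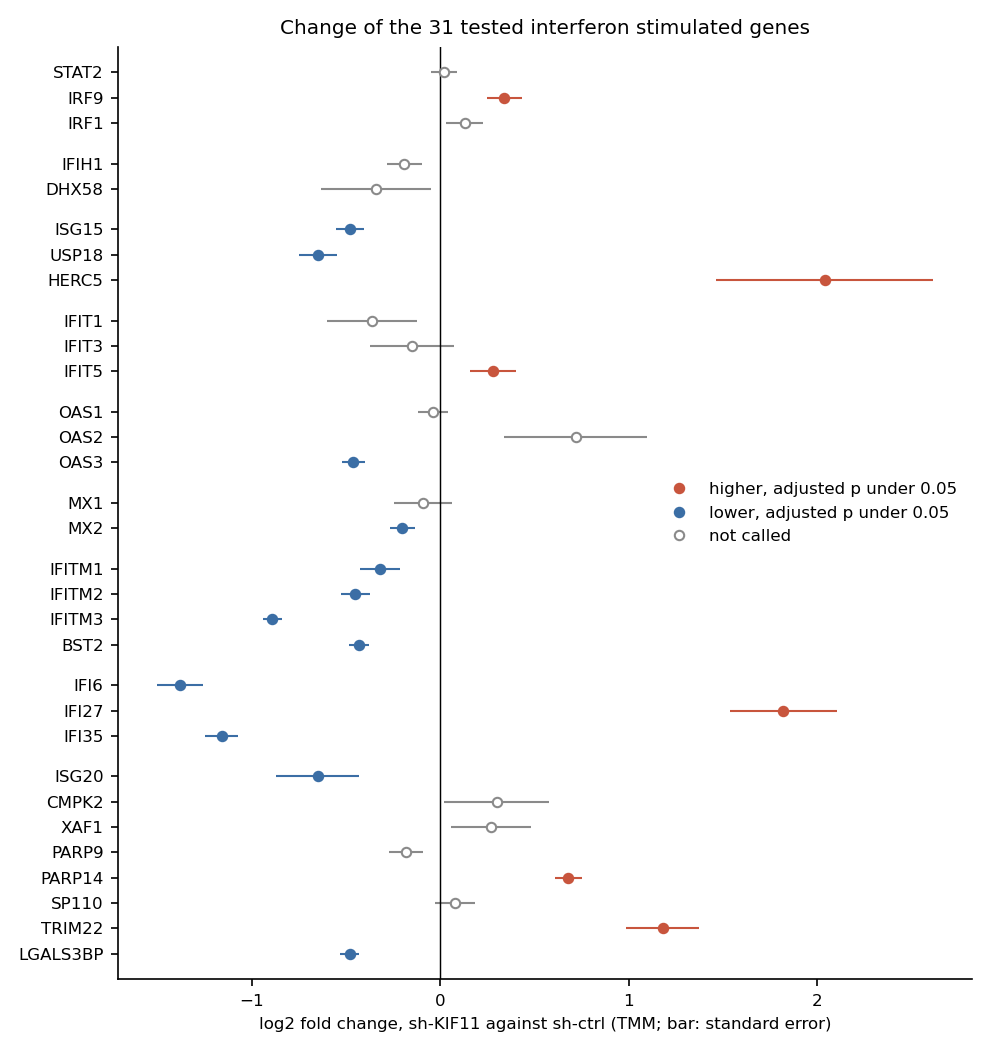
Points give the log2 fold change of each of the 31 tested members (horizontal axis, sh-KIF11 against sh-ctrl) and bars its standard error, ordered by role from transcription factors at the top to other effectors at the bottom. Filled red points rose (6), filled blue points fell (12) and open points were not called (13). HERC5 at 2.04 (tested through its sh-KIF11 libraries alone) and IFI6 at −1.38 are the ends of the range.

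The most abundant members fell. The 6 members with a mean over 10 FPKM (FPKM is a level corrected for transcript length) were IFITM3, LGALS3BP, BST2, ISG15, IFITM2 and IFITM1, and all 6 fell. Of the 4684 tested genes above that level 57% fell. They carried 90.1% of the summed FPKM of the set, IFITM3 alone 37.9%. The summed level of the 38 was 874, 890 and 837 FPKM in sh-ctrl and 672, 652 and 668 FPKM in sh-KIF11. The sum over all 20030 genes was lower too, with 329624 to 333768 FPKM in sh-ctrl and 292628 to 295314 FPKM in sh-KIF11. Between 1 and 10 FPKM 5 members rose and 5 fell of 16, beside 40.3% of all tested genes higher and 25.4% lower at that level. Below 1 FPKM 1 rose and 1 fell of 9, beside 49.1% higher and 9.86% lower. Across the 31 members Spearman's rho of mean FPKM and log2 fold change was −0.53, and across all 12369 tested genes it was −0.43, in both cases over genes that share the same 6 libraries.

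**Figure D3:**
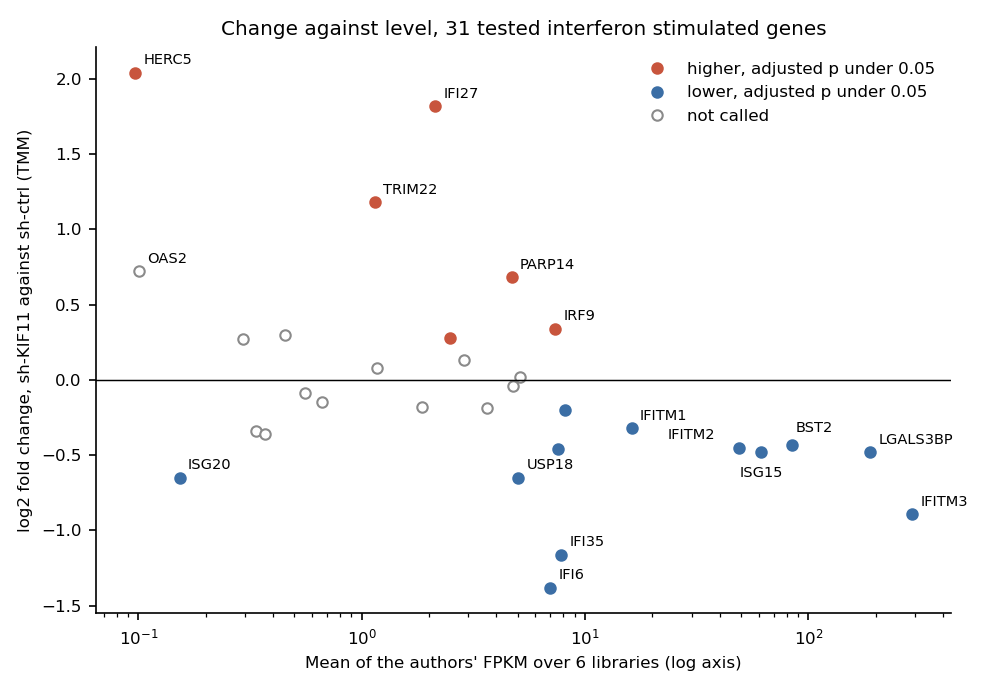
Each point is one of the 31 tested members, with its mean FPKM over 6 libraries on a log axis and its log2 fold change on the vertical axis. The 6 members over 10 FPKM lie below 0, and the 3 that rose at least 2-fold (HERC5, IFI27, TRIM22) lie at the low and middle levels.

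Of the ISGF3 components in the set, IRF9 rose and STAT2 was called only when counts were scaled by library totals alone. STAT2, which carries the activation domain of ISGF3, was at 44.9, 45.0 and 41.7 CPM in sh-ctrl and at 46.4, 46.0 and 41.3 CPM in sh-KIF11. Its groups overlapped and it was not called (log2 fold change 0.02, SE 0.07, edgeR adjusted p = 0.798). With library totals alone its log2 fold change was 0.25 (edgeR adjusted p = 0.00144), where the median of all genes was 0.23. IRF9, the DNA-binding part, was at 14.6, 15.7 and 14.7 CPM and then at 17.4, 19.1 and 20.6 CPM, so every sh-KIF11 library was above every sh-ctrl library. It rose 1.27-fold (log2 fold change 0.34, SE 0.0921, edgeR adjusted p = 0.00111), with the limit that a further protein-coding entry, AL136295.5, overlaps it on the same strand in GENCODE 29. IRF1, a factor that binds similar elements, was not called (log2 fold change 0.13), but was called higher with library totals alone (0.37) and in the fits on log2(FPKM + 1) and log2(FPKM + 0.1) (0.24 and 0.32). The RNA sensors IFIH1 (MDA5) and DHX58 (LGP2), both of them interferon stimulated, had log2 fold changes of −0.19 and −0.34 and were not called. IFIH1 stood close to the threshold (edgeR adjusted p = 0.0569), and its libraries did not overlap.

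In the ISG15 system the modifier and its protease fell, and a ligase rose from near the detection limit. ISG15, a ubiquitin-like protein that is attached to new proteins, was at 46.0, 42.8 and 41.8 CPM in sh-ctrl and at 30.0, 30.2 and 33.1 CPM in sh-KIF11. All 3 knockdown libraries were lower, and it fell by 28.5% (log2 fold change −0.48, SE 0.0737, edgeR adjusted p = 2.35e-07). USP18, which removes ISG15 and also damps the type I receptor, was at 17.4, 16.7 and 19.7 CPM and then at 10.1, 12.4 and 11.9 CPM. The groups did not overlap, and it fell by 36.1% (log2 fold change −0.65, SE 0.101, edgeR adjusted p = 4.32e-07). HERC5, the main ligase for ISG15 in human cells, had only 2, 5 and 1 counts in the control libraries and 12, 12 and 15 counts after knockdown. It passed the filter on low counts through the sh-KIF11 libraries alone, and its log2 fold change of 2.04 (SE 0.576, edgeR adjusted p = 0.00188) ranged from 1.69 to 2.81 when 1 library was left out. HERC6, its neighbour on chromosome 4, had 4, 7 and 8 counts and then 12, 10 and 9 and was not tested. UBA7 and UBE2L6, the enzymes that activate and carry ISG15, are no members of the set. UBA7 fell (log2 fold change −0.59, edgeR adjusted p = 9.21e-05) and UBE2L6 was not called (log2 fold change −0.10).

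The IFIT genes, whose proteins bind foreign RNA ends and stop its translation, lie together on chromosome 10 and did not move together. IFIT1 was at 2.30, 2.49 and 2.55 CPM in sh-ctrl and at 1.79, 2.22 and 1.67 CPM in sh-KIF11. The sh-KIF11 libraries were all lower, but the difference was not called (log2 fold change −0.36, SE 0.238, edgeR adjusted p = 0.172). IFIT3 was at 2.80, 2.22 and 2.96 CPM and then at 2.14, 2.61 and 2.43 CPM, with overlapping groups and no call (log2 fold change −0.15). IFIT2, with 9, 4 and 7 counts in the control libraries and 6, 7 and 7 after knockdown, was not tested. IFIT5 was at 7.06, 7.92 and 8.77 CPM and then at 9.62, 10.2 and 8.97 CPM, and was the only one of the 4 with a call. It rose 1.21-fold (log2 fold change 0.28, SE 0.123, edgeR adjusted p = 0.0413), but the call was lost in DESeq2 (adjusted p = 0.0869), without the filter on low counts and when sh-ctrl 1, sh-ctrl 2, sh-KIF11 1 or sh-KIF11 2 was left out. In GENCODE 29 the IFIT1, IFIT2 and IFIT3 genes overlap LIPA on the other strand, and whether strand was used in counting is not given in the sources used here. ISG15, IFI6, IFITM2 and IFITM3 overlap antisense transcripts and carry the same limit. It holds as well for PARP9, SP110, CMPK2, RSAD2, IRF1, MX1 and XAF1, which overlap entries on the other strand.

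The OAS enzymes make oligoadenylates when they meet double-stranded RNA. Of the 4 genes of this family 3 were tested and 1 of these was called, beside 69.1% of all tested genes. OAS3 was at 80.5, 79.7 and 69.3 CPM in sh-ctrl and at 52.4, 56.0 and 58.8 CPM in sh-KIF11. Its groups did not overlap, and it fell by 27.2% (log2 fold change −0.46, SE 0.0634, edgeR adjusted p = 3.37e-08). OAS1 was at 26.6, 25.2 and 26.8 CPM and then at 24.7, 24.3 and 27.5 CPM, which overlap, and was not called (log2 fold change −0.04). It was above 0 under 4 other scalings or units and called higher in one of these, library totals alone (0.19, edgeR adjusted p = 0.0318). OAS2 had 9, 11 and 10 counts against 20, 21 and 16. All sh-KIF11 libraries of OAS2 were higher, without a call (log2 fold change 0.72, SE 0.379, edgeR adjusted p = 0.0874), though it was called higher with library totals alone and on log2(FPKM + 0.1). OASL, a relative without the enzyme activity, had 9, 7 and 9 counts and then 2, 8 and 3 and was not tested. OAS1, OAS2 and OAS3 share an antisense transcript in GENCODE 29, with the same uncertainty.

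Of the MX GTPases, which trap viral nucleocapsids, MX1 was at 6.05, 5.10 and 5.74 CPM in sh-ctrl and at 5.58, 4.73 and 5.58 CPM in sh-KIF11, overlapping and not called (log2 fold change −0.09). MX2 was at 55.1, 56.1 and 53.4 CPM and then at 45.5, 48.6 and 49.5 CPM. It was called lower (log2 fold change −0.20, SE 0.0649, edgeR adjusted p = 0.0072), but the value was 0.03 with library totals alone, and the call was also lost under upper-quartile scaling, in both fits on FPKM and without sh-KIF11 1.

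Of the antiviral membrane proteins, the IFITM genes and BST2, 4 of 4 fell, all of them above 10 FPKM, where 57% of all tested genes fell. IFITM3 keeps viruses from fusing with endosomes. It was at 226, 242 and 223 CPM in sh-ctrl and at 131, 119 and 122 CPM in sh-KIF11. The groups were far apart, and it fell by 46.1% (log2 fold change −0.89, SE 0.0519, edgeR adjusted p = 7.11e-19). On the authors' FPKM scale the means were 356 and 225 FPKM, a log2 fold change of −0.66 in the fit on log2(FPKM + 1). Its close relative IFITM2 was at 39.2, 39.1 and 35.2 CPM and then at 28.3, 26.0 and 28.9 CPM, and IFITM1 was at 12.9, 13.0 and 12.3 CPM and then at 9.81, 10.2 and 10.6 CPM. Both were lower in all sh-KIF11 libraries. IFITM2 fell by 26.8% (log2 fold change −0.45, SE 0.076, edgeR adjusted p = 1.82e-06). IFITM1 fell by 19.7% (log2 fold change −0.32, SE 0.106, edgeR adjusted p = 0.00762), a call that was lost with library totals alone (log2 fold change −0.09) and in the FPKM fits. The IFITM genes are closely related neighbours on chromosome 11, and IFITM1 lies within the span of IFITM2 in GENCODE 29, so how reads were divided between them is uncertain. BST2, or tetherin, which holds budding virus at the cell surface, was at 117, 121 and 114 CPM and then at 87.9, 89.0 and 84.1 CPM. No library of one group reached the other, and it fell by 25.8% (log2 fold change −0.43, SE 0.0524, edgeR adjusted p = 1.71e-09).

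The genes named IFI, which are not one family, held the 2 largest falls and the second largest rise among the tested members. IFI6, a membrane protein that restricts flavivirus replication, was at 13.2, 13.2 and 13.6 CPM in sh-ctrl and at 5.43, 4.64 and 5.32 CPM in sh-KIF11. The groups were well separated, and it fell by 61.6% (log2 fold change −1.38, SE 0.122, edgeR adjusted p = 3.29e-13). IFI35 was at 34.9, 35.6 and 34.2 CPM and then at 14.4, 14.4 and 17.9 CPM. It too was lower in all 3 libraries and fell by 55.4% (log2 fold change −1.16, SE 0.0852, edgeR adjusted p = 1.09e-15). IFI27, a small mitochondrial protein of the same family as IFI6, went the other way, with 22, 15 and 9 counts against 51, 63 and 73. Every knockdown library was higher, and it rose 3.53-fold (log2 fold change 1.82, SE 0.283, edgeR adjusted p = 3.69e-07, 1.58 to 2.17 when 1 library was left out). The neighbours IFI44 and IFI44L on chromosome 1 were at the detection limit. IFI44 had 2, 2 and 0 counts and then 2, 4 and 14, and IFI44L had no count in the control libraries and 1, 4 and 3 counts after knockdown. Fitted without the filter on low counts, both were called higher (edgeR adjusted p = 0.043 and 0.0366), and the other members below the filter that had counts were not. The groups of IFI44 overlapped, and most of its sh-KIF11 counts came from sh-KIF11 3. IFI44L was called from a control level of 0.

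The other effectors were divided. PARP14, an ADP-ribosyltransferase, was at 34.4, 40.1 and 39.0 CPM in sh-ctrl and at 55.5, 62.0 and 64.4 CPM in sh-KIF11. The groups did not overlap, and it rose 1.60-fold (log2 fold change 0.68, SE 0.0712, edgeR adjusted p = 3.57e-11). PARP9, nearby on chromosome 3, was at 17.7, 17.9 and 17.1 CPM and then at 14.7, 16.1 and 15.6 CPM and was not called (log2 fold change −0.18, edgeR adjusted p = 0.0751). TRIM22, a ubiquitin ligase that restricts several viruses, had 38, 46 and 37 counts and then 104, 93 and 117. All knockdown libraries were above all controls, and it rose 2.26-fold (log2 fold change 1.18, SE 0.193, edgeR adjusted p = 9.88e-07). It overlaps TRIM5 on the other strand in GENCODE 29. LGALS3BP, a secreted glycoprotein that binds galectins, was at 680, 673 and 611 CPM and then at 483, 463 and 464 CPM. It was lower in every sh-KIF11 library and fell by 28.2% (log2 fold change −0.48, SE 0.0491, edgeR adjusted p = 2.14e-11). ISG20, an exonuclease, had 60, 62 and 54 counts and then 38, 39 and 51, and was called lower (log2 fold change −0.65, SE 0.22, edgeR adjusted p = 0.00824), a call that was lost with library totals alone (−0.42, edgeR adjusted p = 0.0816). XAF1, CMPK2 and SP110 were not called, with log2 fold changes of 0.27, 0.30 and 0.08, though XAF1 (0.50) and SP110 (0.31) were called higher with library totals alone. RSAD2 (viperin), among the most strongly induced of these genes in many cells, had 3, 1 and 0 counts and then 5, 0 and 3.

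**Figure D4:**
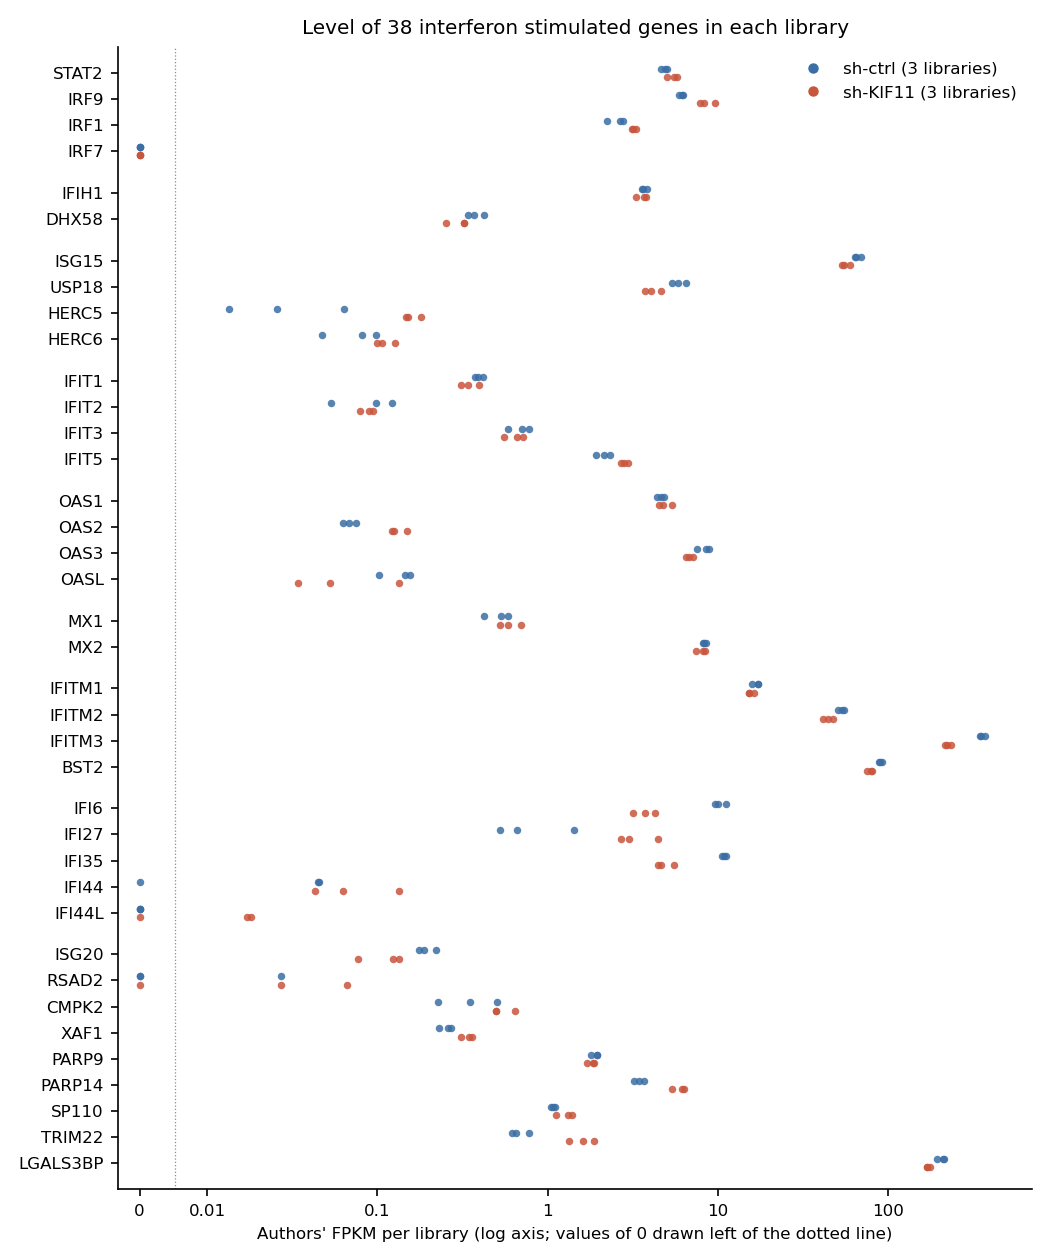
Each row is one of the 38 members, grouped by role, and each dot is one library (blue sh-ctrl, red sh-KIF11). The horizontal axis is the authors' FPKM on a log scale, with values of 0 drawn left of the dotted line. IFITM3 and LGALS3BP head the levels, IRF7 is at 0 throughout, and IFI6 and IFI35 show the widest gap downwards among members above 1 FPKM.

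A second list of 63 genes around the response was read beside the members, and 30 of these were tested. Of the 30, 9 rose and 8 fell (56.7% called, beside 69.1% of all tested genes, 34.4% higher and 34.7% lower). These calls are given in the main scaling only. Library totals alone moved the median of all genes to 0.23, so small changes may depend on the scaling. The ligands were not detected. Of 21 interferon genes, 20 had no count in any library, IFNB1 and IFNG among them, and IFNL1 had 1 count in 1 sh-ctrl library. A count of 0 allows up to 3 counts per library, a limit that covers counting error only. The receptor chains moved in both directions. IFNGR1, the ligand-binding chain for interferon gamma, was at 78.5, 78.7 and 87.4 CPM in sh-ctrl and at 142, 150 and 160 CPM in sh-KIF11, a rise of 1.85-fold without overlap (log2 fold change 0.89, SE 0.0556, edgeR adjusted p = 7.96e-18). Its partner IFNGR2 fell (log2 fold change −0.54), as did both chains for interferon lambda, IFNLR1 (−0.47) and IL10RB (−0.36). The type I receptor chains IFNAR1 (62.8, 65.1 and 62.2 CPM, then 62.1, 62.7 and 64.9 CPM) and IFNAR2 (log2 fold change 0.17) were not called.

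Among the kinases JAK2 was at 4.93, 4.54 and 4.44 CPM in sh-ctrl and at 11.6, 12.2 and 12.3 CPM in sh-KIF11. JAK2, which serves the interferon gamma receptor, rose 2.59-fold (log2 fold change 1.37, SE 0.127, edgeR adjusted p = 1.38e-12). JAK1 rose (log2 fold change 0.38), and TYK2 was called lower (log2 fold change −0.19) with overlapping groups. SOCS1, an inhibitor of the JAK kinases, was at 18.3, 18.4 and 18.6 CPM and then at 6.18, 7.48 and 8.31 CPM. It fell by 60.3% (log2 fold change −1.33, SE 0.109, edgeR adjusted p = 3.21e-14). Of the other regulators PIAS1 was called higher (log2 fold change 0.19, groups overlapping), and IRF2, SOCS3, PTPN2 and PTPN6 were not called.

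Of the sensors and adaptors, DDX58 (RIG-I, log2 fold change 0.84), TMEM173 (STING, 1.99) and the kinase TBK1 (0.53) rose. TMEM173 had 8, 17 and 12 counts and then 58, 51 and 61, higher in every knockdown library (edgeR adjusted p = 1.29e-07). MAVS (log2 fold change −0.12), the adaptor of DDX58, and IRF3 (−0.31), the factor that TBK1 activates, fell. TICAM1, IKBKE, EIF2AK2 and ADAR were not called, and CGAS, the sensor that signals to TMEM173, had at most 1 count per library. Of 12 genes induced mainly by interferon gamma, GBP3 had 4, 2 and 2 counts and then 26, 40 and 41. GBP3, a guanylate-binding GTPase, rose (log2 fold change 3.49, SE 0.454, edgeR adjusted p = 8.15e-09) from a control level near the limit of detection, and passed the filter on low counts through the sh-KIF11 libraries alone. GBP2 rose too (log2 fold change 0.53), GBP1 and WARS were not called, CXCL9, CXCL10, IDO1, GBP4 and IRF8 had no count, and CXCL11, GBP5 and CIITA had at most 3 counts per library.

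**Figure D5:**
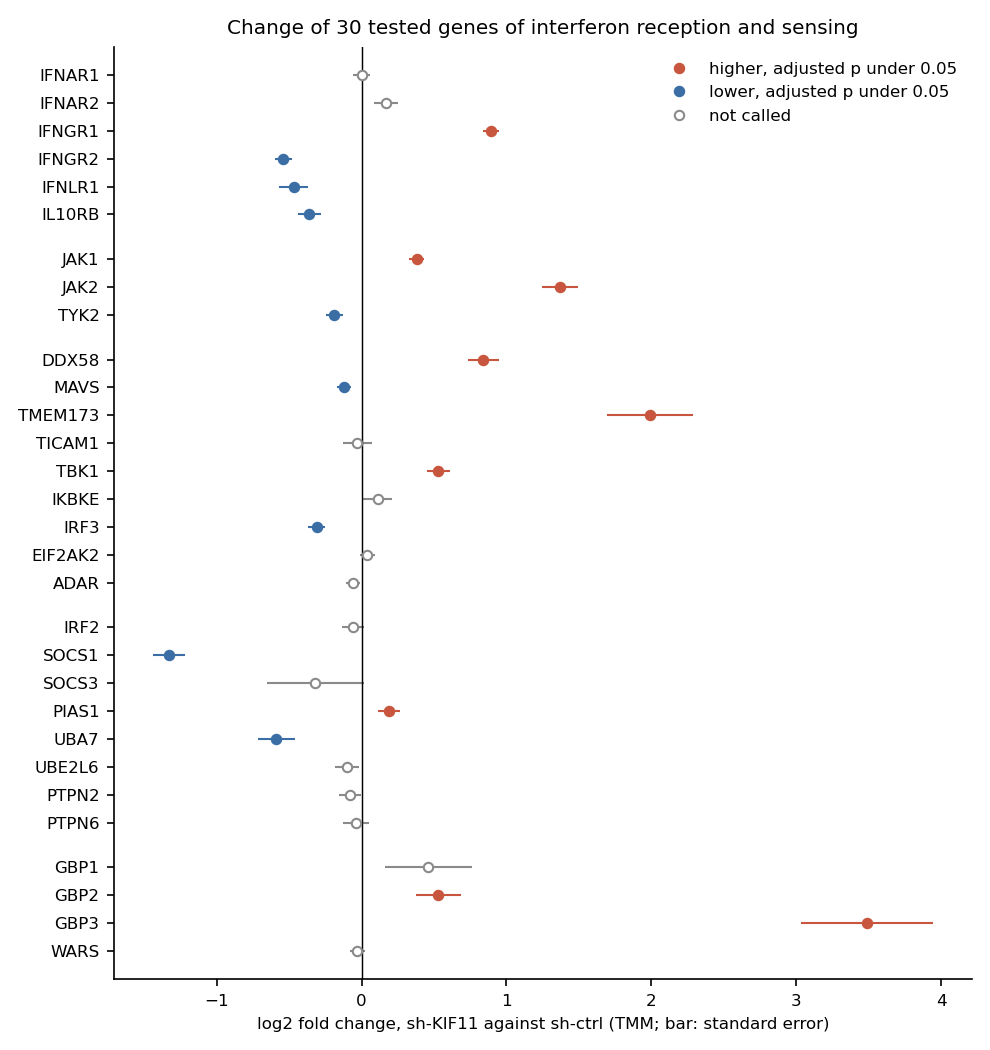
Log2 fold change (horizontal axis, sh-KIF11 against sh-ctrl) and standard error of the 30 tested genes of interferon reception, signalling, sensing and control, from receptors at the top to genes induced mainly by interferon gamma at the bottom. GBP3 (3.49, tested through its sh-KIF11 libraries alone), TMEM173 (1.99) and JAK2 (1.37) lie farthest to the right and SOCS1 (−1.33) farthest to the left.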

How the data were processed

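The authors trimmed paired-end reads of poly(A) RNA with Trimmomatic and deposited raw counts per gene and, for the same genes, FPKM values, which correct for the length of a transcript and the depth of a library. The submitters' processing notes name bcl2fastq 1.8.4, HISAT2 2.1.0, HTSeq 0.9.1, Cufflinks 2.2.1 and DESeq without their roles, and the build GRCh38. Columns named shRNA were read as sh-KIF11, the only other hairpin in the labels. Counts were fitted in R 4.3.3 with edgeR 4.0.16 (TMM factors, filterByExpr with a minimum of 10 counts, quasi-likelihood test, two-sided, group as the only term), and p-values were adjusted with the Benjamini-Hochberg method over all 12369 tested genes. CPM values use TMM factors, except in the filter on low counts, which uses library totals alone. Alternatives were other scalings, filters on low counts, a replicate block, DESeq2 1.42.0, limma 3.58.1 on log2 of FPKM with 1 or 0.1 added, stricter thresholds and each library left out in turn. The procedures were run on simulated counts in which few genes changed. In the data most tested genes were called, so that run does not test the choice of scaling. Every member was accounted for. Values per library are given for called members of at least 2-fold change, the 3 of highest FPKM and the IFITM and IFIT genes, and for others where they show a contrast, chosen after their values were seen. The members and all gene lists were chosen with earlier results of these data known. Gene positions come from GENCODE 29 and promoter windows from RefSeq. Some genes of these lists are not reported here.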

Additional observations from a re-analysis of the deposited data

How the results depend on the processing

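Of the 18 called members, 14 kept their call and direction in every one of 15 alternatives that gave a value: IRF9, ISG15, USP18, HERC5, OAS3, IFITM2, IFITM3, BST2, IFI6, IFI27, IFI35, PARP14, TRIM22 and LGALS3BP. IFIT5, MX2 and IFITM1 did not, as given with their values, and ISG20 was lost with library totals alone (edgeR adjusted p = 0.0816). HERC5 passed the main filter through its sh-KIF11 libraries alone. HERC5 and IFI27 had no value where at least 10 counts were required in every library. The call does not fix the size. With library totals alone, on log2(FPKM + 1) and on log2(FPKM + 0.1) the log2 fold changes of ISG15 were −0.25, −0.23 and −0.23, and those of BST2 −0.20, −0.21 and −0.21. HERC5 was at 0.17 and TRIM22 at 0.63 on log2(FPKM + 1), a scale that understates low genes. With library totals alone 12 members were higher and 9 lower of 31, beside 6619 and 2378 of all 12369 tested genes. The median of the members was 0.05 there. The log2 fold changes of IFIH1 (0.04), IFIT3 (0.08), OAS1 (0.19), MX1 (0.14), MX2 (0.03) and PARP9 (0.05) turned positive. STAT2 (0.25), IRF1, OAS1, OAS2, XAF1 and SP110 were called higher there and not in the main scaling. This scaling moved the median of all genes to 0.23. OAS1 was also positive under upper-quartile scaling (0.04). In limma on log2(FPKM + 1) the median of the members was −0.04, with OAS1 at 0.06 and MX1 at 0.08, and on log2(FPKM + 0.1) it was −0.06, with OAS1 at 0.07 and MX1 at 0.20, where the median of all genes was 0.12 and 0.17. The cause of these shifts was not tested. The call at 2-fold kept 5 members. With 1 library left out, 16 to 19 members were called, beside 7975 to 8749 of 12481 to 12580 tested genes. STAT2 then lay between −0.02 and 0.07, and IFIH1 was called lower without sh-ctrl 3 and without sh-KIF11 3. Libraries of the same number did not deviate together (correlations 0.0391, −0.0314 and 0.00448 over 11752 genes). The replicate block gave 18 called members, 6 higher and 12 lower, with a median of −0.18, beside 8607 called of all 12369 tested genes. Without the filter on low counts 37 members were tested and 19 called, beside 8903 called of 16216 genes. IFI44 and IFI44L, both at the detection limit, were among the called members.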
